A study of Mus musculus with 64 samples.

Results

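The data concern 8 transcription factor genes of effector regulatory T (Treg) cells, Irf4, Batf, Prdm1, Maf, Nfil3, Bhlhe40, Bach2 and Myb, among the 55809 genes counted in each of 64 mouse RNA-seq libraries. They were chosen by name, with earlier results of these data known, and all 8 were found. The libraries fall into 28 groups from a Foxp3 degron experiment and a reversible Foxp3 allele experiment. In degron mice the Foxp3 protein bore an auxin-inducible degron tag (AID), with, at ROSA26, either WT or TIR1(F74G), a plant ligase component that marks the fusion protein for destruction when 5-ph-IAA is given, here for 7 days. Adult degron donors were females with 1 AID copy of Foxp3, TIR1 was driven by the CAG promoter behind a stop cassette that Cre from the AID allele removes, and thymic CD73- and active (CD62L lo CD44 hi) cells of the pooled secondary lymphoid organs had 3 libraries per genotype. Infant Treg cells from spleen and lymph nodes, not divided by activation state, had 4 libraries per genotype. For its neonatal experiments the paper gives hemizygous males, whose only Foxp3 copy is the AID copy. It reports severe autoimmune disease in neonates under longer Foxp3 degradation. In infants, effects of inflammation around the cells therefore cannot be told apart from those of Foxp3 loss within them. In the reversible allele, a Thy1.1 stop cassette blocks Foxp3 until CreERT2 from the Cd4 locus removes it after a dose of 4-hydroxytamoxifen (4-OHT). All donors there were females with 1 blocked and 1 normal Foxp3 copy. Cells with CreERT2 are called plusFoxp3 and littermate cells without it minusFoxp3, and both resting and active cells were sorted untreated (day 0) or 3, 7, 14 and 28 days after the dose. Each of these groups had 2 libraries. Treg cells of untreated Foxp3 GFP mice (GFP Treg) had 2 libraries per state.

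Resting Treg cells circulate through lymphoid organs, and antigen receptor signals drive a fraction of them into an activated, effector state with more suppressive molecules and entry into tissues. Batf, an AP-1 family protein, pairs with Jun proteins and with Irf4, an interferon regulatory factor induced by receptor signals, and both are needed for that step. Prdm1 encodes Blimp-1, a repressor that marks effector Treg cells making Il10, and Maf is an activator of Il10. Nfil3 and Bhlhe40 are repressors of the leucine zipper and helix-loop-helix families, Bhlhe40 being known as a repressor of Il10 in T cells. Bach2 opposes AP-1 proteins at shared sites and holds T cells in the resting state. Myb is known from blood progenitors and thymocytes and is also needed for effector Treg cells. In GRCm39, as the files give it, Irf4 lies on chromosome 13 from 30933209 to 30950959, Batf on chromosome 12 from 85733443 to 85755861, and Prdm1 on chromosome 10 from 44313173 to 44404497. Maf lies on chromosome 8 from 116409681 to 116434533, Nfil3 on chromosome 13 from 53121245 to 53135109, and Bhlhe40 on chromosome 6 from 108637590 to 108643886. Bach2 spans chromosome 4 from 32238804 to 32586108 and Myb chromosome 10 from 21000834 to 21036883. Values are read pairs over all exons of a gene. For Maf, Myb, Bach2 and Bhlhe40, between 2.51% and 6.26% of the exonic bases are shared with an antisense gene, and since strand was not used, reads there cannot be told apart.

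The promoters of 2 members are shown, those with the firmest differences between plusFoxp3 and minusFoxp3 cells, Prdm1 in resting and Irf4 in active cells. RefSeq promoter sequences (GRCm38.p6) were matched for 6 of the 8 members, without Maf and Bhlhe40. The 250 bases before the start were searched on both strands for TGANTCA (AP-1), GAAA, any 2 bases and GAAA (interferon regulatory factors), CACGTG (E-box), TTANNTAA (NFIL3), TGTTTAC (forkhead) and AACNGNC (Myb), and capitals mark matches. No match overlapped another.
Prdm1, chr10:44458749-44458998, minus strand: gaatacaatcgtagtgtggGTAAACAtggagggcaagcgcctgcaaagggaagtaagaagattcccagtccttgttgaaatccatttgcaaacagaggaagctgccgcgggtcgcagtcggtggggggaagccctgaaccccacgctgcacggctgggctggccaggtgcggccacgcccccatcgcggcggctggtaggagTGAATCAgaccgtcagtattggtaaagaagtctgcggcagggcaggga
Irf4, chr13:30748983-30749232, plus strand: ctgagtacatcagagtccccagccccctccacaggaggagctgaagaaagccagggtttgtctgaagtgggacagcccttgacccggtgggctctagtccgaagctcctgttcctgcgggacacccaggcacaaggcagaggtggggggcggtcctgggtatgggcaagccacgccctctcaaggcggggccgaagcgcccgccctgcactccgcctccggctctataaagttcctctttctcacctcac
The Prdm1 promoter held the AP-1 letters, which 6.75% of 32851 promoters hold, and on the other strand the forkhead letters, which 3.17% hold. The Irf4 and Myb promoters held none of the 6 sets of letters. Those of Batf, Bach2 and Nfil3 held only the Myb letters, which occur in 27.7% of promoters. The other letters were held by 2.98% of promoters for the interferon regulatory factor letters, 6.02% for CACGTG and 5.43% for TTANNTAA. A match describes the letters and shows no binding.

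Library totals ran from 27753211 to 34029692 read pairs for adult degron libraries, from 33704114 to 55801009 in infants and from 35097257 to 57419138 in the other 44. Foxp3, which checks the labels of the reversible allele, lay between 426 and 615 CPM (counts scaled to the library total) in the 16 plusFoxp3 libraries of days 3 to 28. It lay between 44.3 and 81.5 CPM in the 20 minusFoxp3 libraries and between 50.7 and 80.7 CPM in the 4 day 0 plusFoxp3 libraries. The sum of 6 T and Treg cell markers was 2410 to 5710 CPM in all 64 libraries, against at most 57.8 CPM for B cell, 50.4 for plasma cell, 29.5 for myeloid, 68.0 for CD8 T and NK cell and 11.8 for CD4+ CD8+ thymocyte markers. The sum of 7 proliferation genes ranged from 12.9 to 1110 CPM. The degron acts on Foxp3 protein, and Foxp3 mRNA was not used to place any degron library. By header name it was at 83.4, 93.4 and 76.7 CPM in active TIR1 and 100, 104 and 127 CPM in active WT libraries. The difference on the log2 scale was -0.42 ± 0.16 (SE; unadjusted p = 0.0287, edgeR adjusted p = 1.00), and in the thymus it was -0.05 ± 0.11 (unadjusted p = 0.666). For each of the 12 adult degron files, the sample it is attached to and the library name in its header belong to opposite genotypes. The header's name is used here, and under the attachment every adult difference between TIR1 and WT has the opposite sign. Infant titles and genotype fields also contradict each other, so the groups go by their titles, as titled TIR1 or titled WT, and the direction of their difference is not settled. Infant titled WT replicate 4 stood apart from the other 3 libraries of its group, and infant results are given with and without it.

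Among the members, Batf had the highest level per length in 25 of the 28 groups, Bhlhe40 in 2 and Nfil3 in 1. In the 10 resting minusFoxp3 libraries, Batf had a median of 52.9 RPKM (CPM per kilobase of exon), followed by Maf at 19.2, Nfil3 at 16.2, Bhlhe40 at 15.1, Bach2 at 10.4, Irf4 at 9.98, Myb at 6.18 and Prdm1 at 2.25 RPKM. From Maf to Myb the ranges of neighbours overlapped, while Batf, from 48.5 to 76.1 RPKM, lay above all the others and Prdm1, from 1.44 to 2.90 RPKM, below them. In the 10 active minusFoxp3 libraries the order changed to Batf (115 RPKM), Bhlhe40 (104), Nfil3 (103), Maf (66.8), Irf4 (31.8), Prdm1 (29.2), Myb (4.24) and Bach2 (4.19). Among the first 4, and within the pairs Irf4 and Prdm1, and Myb and Bach2, the ranges overlapped. In the thymic WT libraries Maf, Prdm1, Irf4 and Nfil3 were at the bottom, with medians of 0.202, 0.804, 1.44 and 1.70 RPKM, beside 38.7 for Batf, 11.7 for Bach2, 11.4 for Myb and 11.2 for Bhlhe40. Infants were counted with the thymic setting, and there Batf led with 51.8 RPKM in titled WT and 61.3 RPKM in titled TIR1 libraries.

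The first question was how the members differ between activation states. All 8 differed between active and resting minusFoxp3 cells, in which the stop cassette blocks Foxp3. Genes count as called where the quasi-likelihood test of edgeR gave an adjusted p (Benjamini-Hochberg) under 0.05, and 37.9% of 20790 genes were called in this comparison, 4076 higher and 3799 lower in active cells. Prdm1 had a lowest, median and highest value of 8.06, 12.5 and 16.2 CPM in 10 resting libraries and 90.8, 163 and 199 CPM in 10 active ones. The groups did not overlap, and the log2 fold change was 3.72 ± 0.17 (SE; edgeR adjusted p = 4.32e-16). Bhlhe40 had 31.9, 71.1 and 128 CPM in resting and 391, 488 and 795 CPM in active libraries, again without overlap, a log2 fold change of 2.88 ± 0.23 (SE). Nfil3 had 15.3, 32.9 and 67.7 CPM in resting and 136, 208 and 280 CPM in active libraries, and rose by 2.66 ± 0.17 (SE) on the log2 scale. Maf, with 89.5, 158 and 304 CPM in resting and 489, 551 and 1060 CPM in active libraries, rose by 2.01 ± 0.20. For Irf4, 33.1, 48.9 and 84.1 CPM faced 118, 156 and 189 CPM, and for Batf, 68.2, 74.4 and 107 CPM faced 140, 162 and 248 CPM. Their log2 fold changes were 1.63 ± 0.11 and 1.12 ± 0.11 (SE), and neither overlapped. Bach2, the factor of the resting state, was lower in active cells, at 30.2, 41.6 and 50.6 CPM against 97.1, 103 and 111 CPM, and fell by 1.29 ± 0.11 on the log2 scale. Myb overlapped between the groups, with 25.6, 37.8 and 61.5 CPM in active and 43.3, 55.2 and 77.4 CPM in resting libraries, and fell by 0.53 ± 0.11. The median over the members was 1.82, against -0.03 over all genes tested. Proliferation genes moved the same way, with sums of 69.2 to 127 CPM in resting and 147 to 388 CPM in active minusFoxp3 libraries, and plasma cell markers from a median of 3.10 to 22.2 CPM, with Sdc1 as the leading gene in 9 of the 10 active libraries. The part of either in these differences was not tested. In bulk samples, more cells with a transcript and more transcript per cell cannot be told apart.

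**Figure D1:**
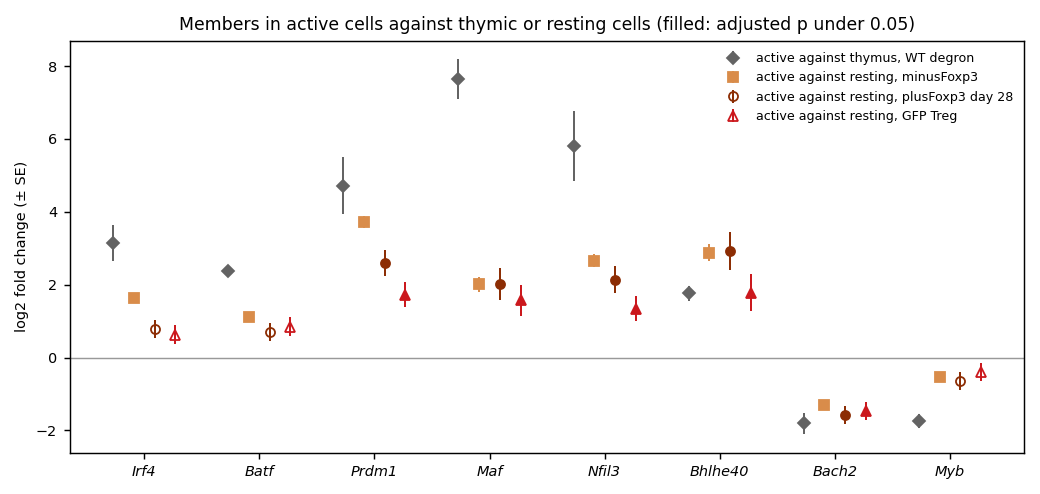
Log2 fold changes (± SE) of the 8 members between active and thymic WT degron cells and between active and resting cells of 3 kinds; filled points had an adjusted p under 0.05. Bach2 and Myb lie below 0 in all 4 comparisons and the other 6 members above 0.

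In cells that express Foxp3, 5 of the 8 members were called, each with the same sign as above. At day 28 after 4-OHT, 5 members differed between active and resting plusFoxp3 cells, where 5.30% of genes were called. Prdm1 was 2.59 ± 0.35 (SE), Bhlhe40 2.92 ± 0.52, Nfil3 2.14 ± 0.36 and Maf 2.03 ± 0.44 higher on the log2 scale in active cells, and Bach2 fell by 1.58 ± 0.25. In GFP Treg cells, where 3.12% of genes were called, the same 5 members were called. The log2 fold changes there were 1.72 ± 0.34 for Prdm1, 1.78 ± 0.50 for Bhlhe40, 1.34 ± 0.35 for Nfil3, 1.57 ± 0.43 for Maf and -1.46 ± 0.25 for Bach2. Bach2 had 81.9 and 85.2 CPM in resting and 29.4 and 32.4 CPM in active GFP Treg libraries. Batf, at 134 and 177 against 260 and 311 CPM, and Irf4, at 42.3 and 42.5 against 63.2 and 69.7 CPM, did not overlap in GFP Treg cells but missed the threshold. Batf in GFP Treg cells was called with RLE scaling (adjusted p = 0.0342), without a filter on low counts (adjusted p = 0.00293) and in DESeq2 (adjusted p = 0.00889), which called 5.64% of genes there. At day 28 DESeq2, with 7.87% of genes called, also called Batf (adjusted p = 0.0485) and Irf4 (adjusted p = 0.0344), and without the filter both were called as well (adjusted p of 0.0337 and 0.0157). With 2 libraries per group these calls rest on few samples. A fit that leaves 1 out has an arm of 1 library, whose spread is assumed to be like that of the other groups. Leaving out any of the 4 GFP Treg libraries left 1 or 2 members called. Bach2 was called each time, while Bhlhe40, Maf and Nfil3 were lost each time, with adjusted p from 0.0942 to 0.283 and log2 fold changes from 1.66 to 1.91, 1.49 to 1.66 and 1.33 to 1.34. Prdm1 was lost without active replicate 1 (adjusted p = 0.0580) or resting replicate 2 (adjusted p = 0.110). At day 28, Bhlhe40 was lost without active plusFoxp3 replicate 1 (adjusted p = 0.0666) and Maf without resting plusFoxp3 replicate 2 (adjusted p = 0.142). Myb was gained without active plusFoxp3 replicate 2 (adjusted p = 0.0370) and Batf without resting plusFoxp3 replicate 1 (adjusted p = 0.0383).

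Mature active cells of the adult degron experiment differed from thymic Treg cells in all 8 members as well, with 23.0% of 14769 genes called. Maf had 1.67, 4.75 and 1.21 CPM in the 3 thymic WT libraries and 566, 419 and 455 CPM in the 3 active ones, a difference of 7.64 ± 0.54 (SE) on the log2 scale (edgeR adjusted p = 1.03e-06). Nfil3 had 0.0709, 4.85 and 3.44 CPM in the thymus and 114, 152 and 175 CPM in active cells, a log2 fold change of 5.80 ± 0.96. Prdm1 had 6.63, 4.48 and 1.38 CPM against 68.7, 115 and 126 CPM, and Irf4 had 4.79, 7.06 and 15.2 CPM against 49.8, 77.8 and 98 CPM. Neither overlapped, with log2 fold changes of 4.72 ± 0.77 and 3.15 ± 0.50. Batf was 2.38 ± 0.16 and Bhlhe40 1.76 ± 0.21 higher in active cells on the log2 scale. Bach2 had 116, 119 and 114 CPM in the thymus against 33.7, 22.2 and 37.6 CPM, and Myb had 102, 97.3 and 104 CPM against 22.4, 27.3 and 35.7 CPM. They fell by 1.81 ± 0.29 and 1.74 ± 0.20. The median over the members was 2.77, against 0.03 over all genes tested. The sign of this comparison does not depend on the genotype records, and all 8 members were also called with the files taken by their attachment. The CD4+ CD8+ thymocyte markers, with which Myb is often seen, summed to 2.71 to 8.99 CPM in the thymic WT libraries, where Rag1, Rag2 and Ptcra were at 0, and to at most 1.15 CPM in active WT libraries. Proliferation genes summed to 12.9 to 36.8 CPM in the thymus and 279 to 388 CPM in active cells. The CD8 T and NK cell markers summed to 58.7 to 68.0 CPM in the thymus and 18.4 to 21.9 CPM in active cells, and the B cell markers to 11 to 21.2 and 31.3 to 57.8 CPM. The part of any of them in these differences was not tested.

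The reversible allele then asked what Foxp3 restored in committed cells does to the members. In resting cells, no member was called at any day. The shares of genes called were 0.00487%, 0.0487%, 0.0585%, 0.268% and 0.945% of 20520 at days 0, 3, 7, 14 and 28. At these days 0, 3, 1, 1 and 3 members had an unadjusted p under 0.05, and DESeq2 called 0, 0, 0, 1 and 1, Prdm1 at day 14, where it called 1.43% of genes, and Batf at day 28, where it called 2.26%. Prdm1 was the member with the steadiest difference. In resting minusFoxp3 cells it had 9.13 and 9.84 CPM at day 0, 11.7 and 16.2 at day 3, 12.8 and 12.2 at day 7, 8.06 and 13.3 at day 14, and 13.2 and 15.1 CPM at day 28. In resting plusFoxp3 cells it had 9.02 and 15.0 CPM at day 0, 31.0 and 23.0 at day 3, 41.5 and 19.2 at day 7, 37.4 and 24.8 at day 14, and 40.4 and 19.0 CPM at day 28. From day 3 on, the 8 plusFoxp3 libraries, between 19.0 and 41.5 CPM, lay above all 8 minusFoxp3 libraries, while the day 0 libraries, sampled before 4-OHT, overlapped. The log2 fold changes at days 3, 7, 14 and 28 were 1.03 ± 0.40, 1.26 ± 0.40, 1.58 ± 0.40 and 1.08 ± 0.40 (SE), with unadjusted p of 0.0203, 0.00643, 0.00129 and 0.0156 and edgeR adjusted p of 0.404, 0.536, 0.165 and 0.360.

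A mean of the 4 daily effects, added after the data were seen, used all 16 treated libraries of a state. In resting cells it called 1 member, with 4.73% of genes called. Prdm1 was 1.23 ± 0.20 (SE) higher on the log2 scale in plusFoxp3 cells (edgeR adjusted p = 0.00145), and it stayed called when any 1 of the 16 libraries was left out, with log2 fold changes from 1.08 to 1.36. Batf, at 0.44 ± 0.13 (edgeR adjusted p = 0.0626), was called in 3 of those 16 fits only. Batf had 73.5 and 72.5 CPM in minusFoxp3 and 115 and 84.2 CPM in plusFoxp3 libraries at day 14, and 75.4 and 69.0 against 172 and 104 CPM at day 28. Its difference at day 28 was 0.95 ± 0.26 (edgeR adjusted p = 0.130). Myb at day 28 had 47.8 and 59.5 CPM in minusFoxp3 and 31.0 and 29.8 CPM in plusFoxp3 libraries, and its difference of -0.81 ± 0.23 missed the threshold as well (edgeR adjusted p = 0.172). The other members gave no steady picture. Irf4, Maf and Nfil3 had 2 daily differences of each sign, and at day 3 Maf had 207 and 304 CPM in minusFoxp3 against 74.9 and 102 CPM in plusFoxp3 libraries, a log2 fold change of -1.47 ± 0.51 that missed the threshold (edgeR adjusted p = 0.364). Nfil3 at the same day was at 36.0 and 67.7 against 31.2 and 20.9 CPM, a log2 fold change of -0.92 ± 0.40.

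Proliferation genes moved together with Prdm1 in resting cells. Their sum was 69.2 to 127 CPM in the 10 minusFoxp3 libraries and 105 to 448 CPM in the 8 treated plusFoxp3 libraries. On each of the 4 days, the plusFoxp3 library with more Prdm1 also had the larger sum, for example 41.5 CPM of Prdm1 beside a sum of 411 CPM and 19.2 beside 179 CPM at day 7. The part of dividing cells in the Prdm1 difference was not tested. Plasma cells also carry Prdm1, and their markers summed to 2.04 to 42.2 CPM in minusFoxp3 and 2.51 to 18.6 CPM in treated plusFoxp3 libraries, with medians of 3.10 and 3.42 CPM.

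**Figure D2:**
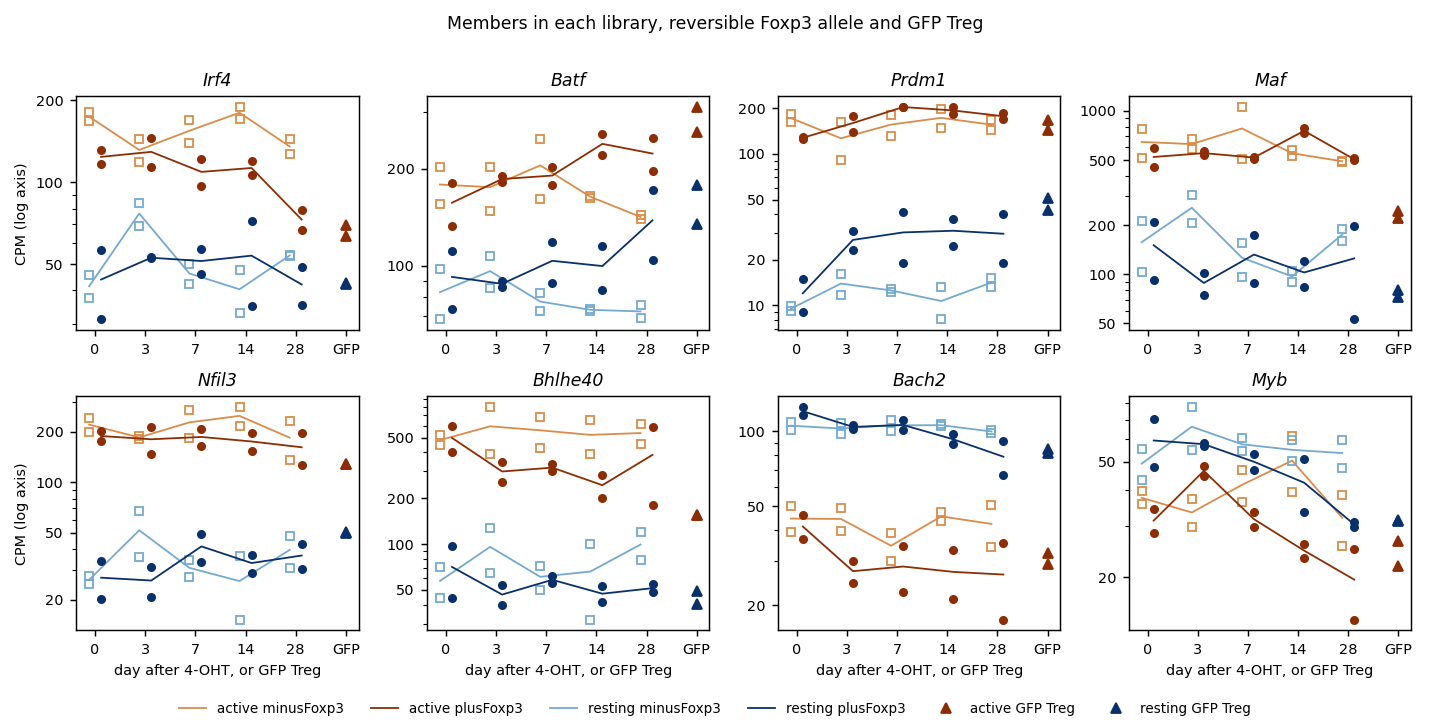
CPM (log axis) of each member in every library of the reversible allele by day after 4-OHT, with GFP Treg libraries at the right; squares are minusFoxp3, circles plusFoxp3, triangles GFP Treg libraries, and lines join group means. Resting plusFoxp3 libraries of Prdm1 lie between 19.0 and 41.5 CPM from day 3 on, above the resting minusFoxp3 libraries, and active plusFoxp3 libraries of Irf4 reach 66.4 and 79.3 CPM at day 28.

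In active cells, Irf4 was the only member called at a single day, and it was lower in plusFoxp3 cells. That was day 28, where 1.85% of 20776 genes were called. None was called at days 0, 3, 7 and 14, with 0.00481%, 0.274%, 0.568% and 0.732% of genes called. At those 4 days 1, 1, 2 and 5 members had an unadjusted p under 0.05, beside 4.58%, 7.4%, 13.0% and 10.2% of all genes. DESeq2 called 0, 0, 0 and 2 members, these being Irf4 and Myb at day 14, where it called 2.49% of genes. In active minusFoxp3 cells, Irf4 had 167 and 181 CPM at day 0, 145 and 118 at day 3, 140 and 169 at day 7, 171 and 189 at day 14, and 127 and 144 CPM at day 28. In active plusFoxp3 cells it had 132 and 116 CPM at day 0, 114 and 145 at day 3, 97.1 and 121 at day 7, 106 and 119 at day 14, and 66.4 and 79.3 CPM at day 28. The groups overlapped at day 3 and were apart at days 7, 14 and 28. They were also apart at day 0, before 4-OHT was given, where the log2 fold change was -0.48 ± 0.16 (SE; unadjusted p = 0.00943). At day 28 Irf4 fell by 0.88 ± 0.16 on the log2 scale (edgeR adjusted p = 0.00742). The call was lost without minusFoxp3 replicate 2 (adjusted p = 0.0674) or plusFoxp3 replicate 1 (adjusted p = 0.0914), with log2 fold changes of -0.83 and -0.77. At day 14 Irf4 was at -0.67 ± 0.16 and Myb at -1.03 ± 0.26, with edgeR adjusted p of 0.0742 and 0.0959. Without minusFoxp3 replicate 2, Maf was called at day 7, with a log2 fold change of -0.99 ± 0.19 (adjusted p = 0.00930), and that replicate's 505 CPM lay next to 1060 CPM in replicate 1. This fit rests on that single minusFoxp3 library of 1060 CPM.

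The mean over days 3 to 28 in active cells called 3 members, with 6.22% of genes called, and all 3 were lower in plusFoxp3 cells. Irf4 fell by 0.49 ± 0.08 (edgeR adjusted p = 0.00110) and was called in all 16 fits that left out 1 library, from -0.55 to -0.45. This mean is of the size of the day 0 difference of Irf4 between the untreated groups. Bach2 fell by 0.57 ± 0.15 (edgeR adjusted p = 0.0299) and was called in 8 of those 16 fits, with adjusted p up to 0.0973. In active plusFoxp3 libraries Bach2 had 30.2 and 24.7 CPM at day 3, 22.6 and 34.6 at day 7, 21.2 and 33.3 at day 14 and 17.5 and 35.6 CPM at day 28, against a range of 30.2 to 50.6 CPM over all minusFoxp3 days. Bhlhe40 fell by 0.82 ± 0.22 (edgeR adjusted p = 0.0368) and was called in 6 of 16, with adjusted p up to 0.109. It had 391 to 795 CPM in the minusFoxp3 and 180 to 592 CPM in the treated plusFoxp3 libraries, with medians of 488 and 293 CPM. Its highest plusFoxp3 value, 592 CPM, was that of day 28 replicate 1, beside 180 CPM in replicate 2. Batf, at 0.32 ± 0.11, and Prdm1, at 0.29 ± 0.12, had unadjusted p of 0.00747 and 0.0260 and were not called. Prdm1 in active cells was at 90.8 to 199 CPM without and 141 to 204 CPM with Foxp3. The plasma cell markers were also lower with Foxp3 in these cells, with a sum of 15.9 to 50.4 CPM in minusFoxp3 and 4.51 to 14.2 CPM in treated plusFoxp3 libraries. At day 0 these sums were 20.8 and 18.0 CPM in plusFoxp3 and 22.2 and 22.7 CPM in minusFoxp3 libraries. At day 3 they were 8.04 and 8.78 against 17.9 and 34.4 CPM. Sdc1, the leading marker in 9 of the 10 minusFoxp3 libraries, was at 11.6 to 18.7 against 1.73 to 5.04 CPM. Jchain was at 0.896 to 37.3 against 0.879 to 9.66 CPM and Derl3 at 1.24 to 3.54 against 0.697 to 2.42 CPM. Mzb1 and Tnfrsf17 were at or under 0.235 CPM in all these libraries. Proliferation sums were 163 and 155 CPM in minusFoxp3 and 403 and 596 CPM in plusFoxp3 libraries at day 3, 356 and 236 against 174 and 149 CPM at day 14, and 147 and 165 against 128 and 132 CPM at day 28. The part of either in the member differences was not tested.

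**Figure D3:**
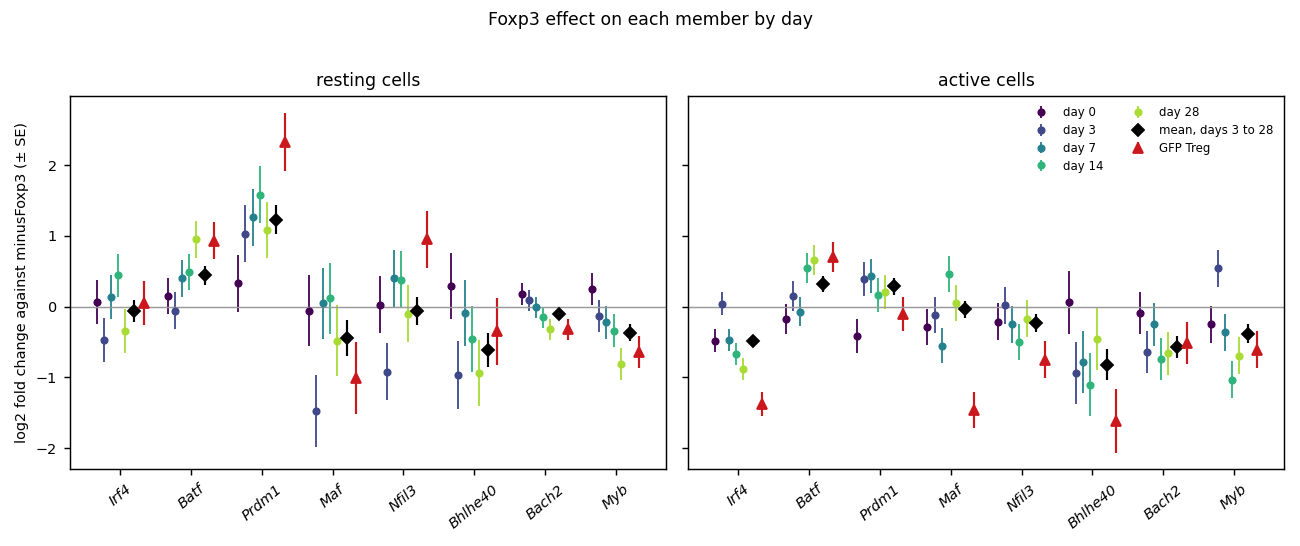
Log2 fold change (± SE) of each member in plusFoxp3 or GFP Treg cells against minusFoxp3 cells, in resting (left) and active (right) cells; circles are single days, diamonds the mean of days 3 to 28 and triangles GFP Treg against day 0 minusFoxp3 cells. Prdm1 in resting cells has a mean of 1.23 and Irf4 in active cells of -0.49.

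GFP Treg cells, which carry a functional Foxp3 allele throughout, were compared with the same day 0 minusFoxp3 libraries that serve the day 0 comparison. In resting cells, where 2.91% of genes were called, Prdm1 was the called member. Its 51.5 and 42.3 CPM in GFP Treg libraries were 2.32 ± 0.41 (SE) higher on the log2 scale (edgeR adjusted p = 0.00414), lost without minusFoxp3 replicate 1 (adjusted p = 0.0673). Proliferation sums were 205 and 170 CPM in these GFP Treg and 92.0 and 73.1 CPM in the minusFoxp3 libraries, and B cell markers 35.4 to 49.9 and 23.3 to 25.6 CPM. In active cells, where 10% of genes were called, 4 members were called. Irf4, at 69.7 and 63.2 CPM, fell by 1.37 ± 0.17 and Maf, at 220 and 243 against 775 and 516 CPM, fell by 1.46 ± 0.25. Both stayed called without any 1 of the 4 libraries. Bhlhe40, at 155 and 154 against 445 and 519 CPM, fell by 1.61 ± 0.45, and Batf, at 311 and 260 against 202 and 156 CPM, rose by 0.70 ± 0.21. Each of these 2 was lost whichever library was left out, with adjusted p from 0.0791 to 0.155 for Bhlhe40 and from 0.0573 to 0.359 for Batf. The median over the 8 members was -0.68 in active cells, against 0.00 over all genes. Active GFP Treg libraries had lower proliferation sums than the minusFoxp3 ones, 104 and 145 against 345 and 203 CPM, higher B cell marker sums, 41.1 to 49.5 against 16.1 to 27.6 CPM, and less of the plasma cell marker Sdc1, 0.457 to 0.551 against 13.5 and 18.7 CPM. The part of these markers in the differences from GFP Treg cells was not tested in either state.

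GFP Treg cells and plusFoxp3 cells of day 28, libraries shared with the day 28 comparison, were set side by side to ask which members differed between them. Their donors also differ in Foxp3 allele and 4-OHT treatment, which cannot be told apart from the time spent with Foxp3. In resting cells no member was called by edgeR or DESeq2, and edgeR called 0.0341% of genes. No member had an unadjusted p under 0.05, beside 3.96% of all genes. In active cells, with 2.01% of genes called, Maf was the called member. Its 512 and 499 CPM at day 28 stood against 220 and 243 CPM in GFP Treg cells, a difference of -1.13 ± 0.25 (SE) on the log2 scale (edgeR adjusted p = 0.0264). The call was lost without any 1 of the 4 libraries, with adjusted p from 0.0609 to 0.259, although the groups did not overlap. Bhlhe40, whose day 28 libraries were 592 and 180 CPM, was called, among fits that left out a library, only without plusFoxp3 replicate 2 (log2 fold change -1.94 ± 0.39, adjusted p = 0.0126). Irf4 was at 66.4 and 79.3 against 69.7 and 63.2 CPM, so the groups overlapped.

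Change over time and between states was tested directly. From day 3 to day 28 a change of the Foxp3 effect was called for no member in resting cells, where 0.0% of genes were called. There 1 member and 7.58% of all genes had an unadjusted p under 0.05, and DESeq2 called no member. In active cells 0.0915% of genes and none of the members were called. There Irf4 was at -0.92 ± 0.23 (edgeR adjusted p = 0.176) and Myb at -1.23 ± 0.37 (edgeR adjusted p = 0.332), and DESeq2 called 1 member, Irf4, beside 1.09% of genes. Myb in plusFoxp3 cells went from 44.6 and 48.5 CPM at day 3 to 14.3 and 24.9 CPM at day 28, and the proliferation sums given above fell with it there, whose part was not tested. A difference of the day 28 effect between active and resting cells was called for no member in edgeR or DESeq2, and edgeR called 0.0818% of genes. No member had an unadjusted p under 0.05, beside 5.58% of all genes. The differences called in 1 state are therefore not shown to be particular to it.

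In adults, degrading Foxp3 for 7 days gave no called member, but edgeR called no gene at all here. The lack of calls is therefore not particular to the members. The paper, using DESeq2, reports more changed genes in thymic than in resting or activated Treg cells. The DESeq2 shares over all genes are not given here for these comparisons. In the thymus edgeR called 0.0% of 14245 genes and DESeq2 called 0 members. There 2 members and 7.37% of all genes had an unadjusted p under 0.05. Batf had 71.9, 59.3 and 83.4 CPM in TIR1 and 54.4, 49.4 and 55.6 CPM in WT libraries, without overlap, a log2 fold change of 0.43 ± 0.16 (SE; unadjusted p = 0.0254, edgeR adjusted p = 0.633). Myb had 119, 124 and 111 CPM in TIR1 and 102, 97.3 and 104 CPM in WT libraries, also without overlap, at 0.22 ± 0.09. Proliferation sums, at 46.0, 41.3 and 51.9 CPM in TIR1 and 21.5, 12.9 and 36.8 CPM in WT libraries, did not overlap either, and their part was not tested. In active cells edgeR called 0.0% of 14554 genes and DESeq2 again 0 members. Prdm1 was the 1 member with an unadjusted p under 0.05, beside 4.62% of all genes. It had 81.3, 59.9 and 65.8 CPM in TIR1 and 68.7, 115 and 126 CPM in WT libraries, which overlapped, at -0.61 ± 0.24 (edgeR adjusted p = 1.00). The difference of the TIR1 effect between active and thymic cells called 0.0% of 14769 genes and no member by either tool. Batf, whose difference was -0.75 ± 0.22 (edgeR adjusted p = 0.684), was the 1 member with an unadjusted p under 0.05, beside 6.66% of all genes. By count and median, the members gave 0.15 in the thymus and -0.19 in active cells, next to -0.00 and -0.01 over all genes. All these signs turn if the files are taken by their attachment.

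**Figure D4:**
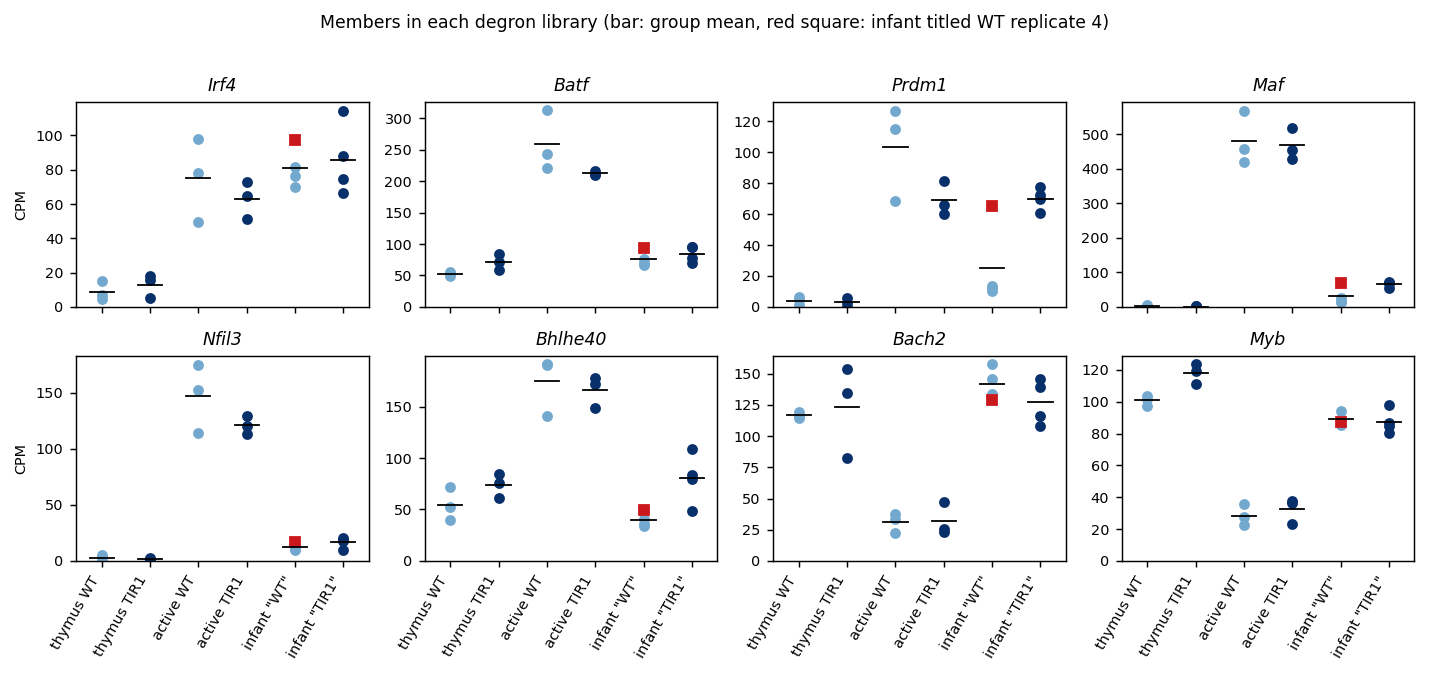
CPM of each member in every degron library, with bars for group means; quotation marks show that infant genotypes are those of the titles, and the red square is infant titled WT replicate 4. For Prdm1 that library, at 65.1 CPM, lies with the titled TIR1 libraries.

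In infants, none of the members was called over all 8 libraries, where 0.0185% of 16209 genes were called. There 2 members and 17.4% of all genes had an unadjusted p under 0.05. DESeq2 called 1 member, Bhlhe40, and 6.83% of genes, and gave no p for Prdm1. The result hung on titled WT replicate 4. Prdm1 had 72.1, 69.6, 60.9 and 77.5 CPM in titled TIR1 libraries and 13.6, 12.1, 10.6 and 65.1 CPM in titled WT libraries 1 to 4. Maf had 69.0, 72.0, 55.4 and 68.8 CPM against 26.9, 14.7, 14.0 and 69.7 CPM. In both genes replicate 4 lay within the range of the other genotype, and the other 3 libraries lay well below it. Bhlhe40 had 109, 83.0, 48.8 and 79.6 CPM against 35.9, 41.0, 33.7 and 49.2 CPM, with 1 library of each group at about the same level. With all 8 libraries the log2 fold changes were 1.49 ± 0.63 (SE) for Prdm1, 1.1 ± 0.51 for Maf and 1.02 ± 0.21 for Bhlhe40, with edgeR adjusted p of 0.285, 0.318 and 0.0918. Without titled WT replicate 4, 11% of 16136 genes and 3 members were called, all higher in titled TIR1 libraries. These were Prdm1 at 2.56 ± 0.12 (edgeR adjusted p = 6.21e-07), Maf at 1.86 ± 0.21 (edgeR adjusted p = 0.000188) and Bhlhe40 at 1.14 ± 0.21 (edgeR adjusted p = 0.00386). That library was singled out by these same data, Prdm1 among them, so its removal favours such calls and these p are no independent test. Leaving out any other infant library called at most 8 genes in all. Leaving out titled TIR1 replicate 3 alone called Bhlhe40, at 1.2 ± 0.15 (adjusted p = 0.0491). The other members showed no such gap. Bach2 was at 108 to 146 CPM in titled TIR1 and 129 to 158 CPM in titled WT libraries, Myb at 80.2 to 97.9 and 85.2 to 93.9, Irf4 at 66.4 to 114 and 69.8 to 97.5, Batf at 70.2 to 95.2 and 67.1 to 94.3, and Nfil3 at 9.80 to 20.3 and 9.92 to 16.6 CPM. Proliferation genes moved with Prdm1 and Maf here too. Their sums were 878, 1110, 745 and 704 CPM in titled TIR1 libraries and 233, 360, 326 and 674 CPM in titled WT libraries, replicate 4 being the highest of its group. Plasma cell markers summed to 2.28 to 2.64 and 0.726 to 1.56 CPM. Derl3 was the leading gene in all 4 libraries of each group, and Mzb1 was at 0 in all 8 libraries. The part of dividing cells, or of inflammation in the donors, was not tested.

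Other genes of the effector program were counted from lists. These lists were chosen with earlier results of these data known, so list counts beside the shares of all genes describe and do not test. Of 21 effector Treg genes, 19 were higher and 1 lower in active than in resting minusFoxp3 cells, for example Rora (log2 fold change 2.99 ± 0.11), a nuclear receptor, and Tigit (5.80 ± 0.31), an inhibitory receptor, where 37.9% of all genes were called. Of 13 resting T cell genes, 12 were lower and 1 higher, among them Lef1 (-3.24 ± 0.09) and Satb1 (-2.49 ± 0.13). Restored Foxp3, averaged over days 3 to 28, went with 13 of the 21 effector genes higher and 0 lower in resting cells and 12 higher and 1 lower in their active counterparts, beside 4.73% and 6.22% of all genes called in either direction. Itgae, the integrin CD103, rose by 3.44 ± 0.32 in resting and 1.94 ± 0.14 in active cells, and Tnfrsf9 by 0.92 ± 0.10 and 2.05 ± 0.19. Over the same libraries 1 of the 8 transcription factors was higher and 0 lower in resting cells, while active cells had 0 higher and 3 lower. Medians of the effector genes were 0.92 and 0.44, those of the 8 factors -0.08 and -0.31, beside -0.02 and -0.00 over all genes. Of the 13 resting T cell genes resting cells had 1 higher and 5 lower and active cells 4 higher and 2 lower, with Tcf7 lower in both, by -0.82 ± 0.08 and -0.99 ± 0.11. Of 15 tested relatives and partners of the members, 1 was higher in resting cells, Mybl2 (1.51 ± 0.37), and in active cells Tef was higher (0.48 ± 0.12) and Hlf lower (-0.95 ± 0.15). Of 11 T cell receptor early response genes none was called in resting cells, where edgeR gave 3 an unadjusted p under 0.05, beside 17.4% of all genes. In active cells Myc (-0.36 ± 0.07) and Egr2 (-0.56 ± 0.16) were lower.

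In infants without titled WT replicate 4, 12 effector Treg genes were higher and 3 lower in titled TIR1 libraries, among them Tigit (3.28 ± 0.15) and Gzmb (3.66 ± 0.24). With all 8 libraries no effector gene was called by edgeR, though 13 had an unadjusted p under 0.05, beside 17.4% of all genes. Over all genes the fit without replicate 4 called 1057 higher and 717 lower, or 11%. This fit leaves out a library that was singled out by these same data. Jun was the 1 partner called with all 8 libraries (1.14 ± 0.08). Without replicate 4, 4 of the resting T cell genes were higher and 3 lower, 4 of the relatives and partners were higher and 1 lower, and 0 of the receptor response genes were higher and 5 lower, for example Nr4a1 (-0.93 ± 0.08). In adult active against thymic WT cells, 16 effector genes were higher and 3 lower, 2 resting T cell genes higher and 11 lower, and Jun (3.59 ± 0.28), a partner of Batf, was among 4 relatives that were higher, while 2043 of all genes were higher and 1361 lower, 23.0% in all.

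The likeness of the members was described over the 22 group means of the reversible allele and GFP Treg libraries. With log2 CPM centred within each state, Pearson's r between members ran from -0.670 (Batf and Myb) to 0.714 (Irf4 and Bhlhe40), and Prdm1 and Batf had 0.656. These points share states, days and genotypes, so r is a description. Among 12399 genes averaging 100 counts or more, Prdm1 was most like Chst2 (r = 0.942), Niban1 and Fam234a, and Batf like Lbh (0.923), Pdcd1lg2 and Klrg1, a receptor of effector Treg cells. Irf4 was most like Ssr1 (0.900), Pros1 and Grk3, Maf like Gm28942 (0.949), Rnase4 and Phactr2, and Nfil3 like Lpxn (0.851), Atp2b4 and Neu3. Bhlhe40 was most like Thsd7b (0.943), Lgals3bp and Hgsnat, Bach2 like Zfp280b (0.886), Fhip1b and Cabin1, and Myb like Il17d (0.864), Pole2, a subunit of a DNA polymerase, and 4933406I18Rik.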

How the data were processed

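RNA was measured by SMART-Seq v4 sequencing of sorted mouse Treg cells, and of cells whose Foxp3 was blocked by the stop cassette, in 64 libraries. Per the file headers, the deposited counts are read pairs per gene that the authors counted with featureCounts 2.0.3 over GENCODE M30 exons of mm39 (GRCm39). The 20 degron files were counted with a mapping quality of at least 30 and primary, non-chimeric alignments, the other 44 without, so levels were compared only within each set. The study's methods name STAR and the submitters' processing notes Bowtie2, so the aligner is not settled. The study describes independent biological replicates. Replicate pairs differed beyond sampling noise, with a chi-square of at least 17.33 per gene over 46 pairs, which shows only that none is a second copy of its partner and not that they came from separate animals. No column was left unmapped.

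Groups came from the labels. Each adult degron file was placed by its header's library name, and infants by title. Each experiment was fitted over all genes with a mean count of at least 10, with TMM factors and the quasi-likelihood test of edgeR 4.0.16 in R 4.3.3, robust, with Benjamini-Hochberg adjustment over all genes tested. A gene was called at an adjusted p under 0.05, the SE was the log2 fold change divided by the root of F, and the procedure was tested on simulated data. CPM used library totals, and RPKM the exonic length in the files. The members and lists were chosen with earlier results of these data known. Fold changes are given for called members, for up to 3 members with the smallest unadjusted p under 0.05 where none was called, and where leaving out a library changed a call. Of each other list, genes were named from the 4 called genes of smallest p with a mean count of at least 100. Alternatives were DESeq2 1.42.0, RLE scaling, no filter on low counts, fits of only the groups compared, the replicate number as a block, leaving out each library, and the recorded attachment of the adult files. The mean effect over days was chosen after seeing the data, and so was the weight given to the infant fit without titled WT replicate 4.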

Additional observations from a re-analysis of the deposited data

Results flagged for a closer look

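The 8 members in both infant groups gave 16 sets of 4 values, of which 1 held a library far from the others, while chance gives about 1 in 20. Prdm1 in infant titled WT replicate 4 was at 65.1 CPM, beside 13.6, 12.1 and 10.6 CPM in the other 3 libraries, a gap of 0.944 of the group's whole range. Its proliferation sum, 674 CPM, was also the highest of its group.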

How the results depend on the processing

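Counts of called members moved by over 1.5 times in 40 of 268 recomputed counts, and no called member changed direction. The adult TIR1 against WT differences, none of them called, all turn sign under the recorded attachment. Other uncalled values near 0 did cross it, such as infant Irf4, 0.10, which was -0.07 without titled TIR1 replicate 2. Without a count filter, resting cells gave 4 called members at day 3, 1 at day 7, 1 at day 14, 4 at day 28 and 4 in GFP Treg against day 0, and active cells gave 1 at day 3, 1 at day 7, 2 at day 14, 2 at day 28, 1 for the change from day 3 to 28 and 2 in GFP Treg against day 28. The shares of all genes called without the filter are not given here for these comparisons. In infants that share was 0.505%, against 0.0185% with the filter, so these counts cannot be read as particular to the members. The cause was not tested. DESeq2 called 1 in infants, 1 at resting day 14, 1 at resting day 28, 2 in resting GFP Treg against day 0, 2 at active day 14 and 1 for the active change over time. Where its shares are given above, it also called more of all genes than edgeR did. Its share for resting GFP Treg against day 0 is not given here. Fits of only the groups compared, with fewer samples, gave 1 at resting day 3 and 0 at active day 28. The mean over days, chosen after seeing the data, gave 1 in resting and 3 in active cells. Leaving out each replicate gave 0 to 3 members in infants, 0 to 1 in resting GFP Treg against day 0, 0 to 1 at active day 7, 0 to 1 at active day 28, 2 in active GFP Treg against day 0, 0 to 1 in active GFP Treg against day 28 and 1 to 2 between active and resting GFP Treg.

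With a replicate block, 1 member was called at resting day 28 and 2 in resting GFP Treg against day 0, Batf being added in both. It was also gained between active and resting cells, at day 28 (adjusted p = 0.0164) and in GFP Treg cells (adjusted p = 0.0076), and no other count moved by over 1.5 times. Whether same-numbered libraries came from the same mice is not in the labels. The correlation of their deviations ran from -0.178 to 0.156 in 5 comparisons with 3 or more pairs. With 2 pairs it ran from -0.172 to 0.262 in 14 comparisons. In the 7 of active against resting cells, also with 2 pairs, it was positive throughout, from 0.162 to 0.355. These libraries may therefore be paired, which the main fits do not model.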
